A study of Mus musculus with 6 samples.

Results

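The vomeronasal receptor genes of the mouse were taken as all genes named on a promoter line of either HiCap replicate list under a symbol that starts with Vmn1r or Vmn2r. Of 21202 genes in the replicate lists, 114 were of this kind, 74 of class Vmn1r and 40 of class Vmn2r. The GENCODE annotation holds 328 vomeronasal protein-coding genes, and 112 of the 114 are protein-coding there. HiCap joins Hi-C, which ligates DNA fragments that lie close to each other in cross-linked nuclei, with sequence capture of promoter fragments. It was carried out on 2 biological replicates of undifferentiated R1 cells, an established line of mouse embryonic stem cells (mESCs). Nuclei of cells cross-linked in 1% formaldehyde (10 min) were cut for 4 h with MboI, which recognises GATC. Hi-C with the same enzyme was done on 2 replicates of the same line, which share 1 pooled list, and 2 Capture-C libraries of the series were not analysed here. No group carried a treatment or an edited allele. The lists hold positions and no expression values, so that the identity of the cells could not be checked against marker genes from them, and expression data were not used here.

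Vomeronasal receptors are the G protein-coupled receptors with which sensory neurons of the vomeronasal organ detect pheromones and other social or predator cues. V1R receptors (Vmn1r genes) have a short N-terminus and act through the G protein subunit Gnai2 in apical neurons, whereas V2R receptors (Vmn2r genes) have a long extracellular domain and act through Gnao1 in basal neurons. The genes lie in tandem arrays that arose by repeated duplication, and a vomeronasal neuron transcribes very few of them, from a chosen allele. mESCs are not sensory neurons, and the lists below describe contacts of these promoters in such cells.

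A pair is a promoter fragment and a distal fragment that a list links, and a pair was called when both HiCap replicates listed exactly the same 2 fragments. Replicate 1 listed 272 pairs of 111 receptor genes and replicate 2 listed 45 pairs of 27, whereas over all genes replicate 2 was the longer list (553977 distinct pairs against 499746). Only 8 pairs of 7 genes were called. They belonged to 5 of 74 Vmn1r genes (6.76%, exact 95% interval 2.23 to 15.1) and 2 of 40 Vmn2r genes (5%, 0.611 to 16.9), beside 60.7% of all listed genes with a called pair. The intervals of the 2 classes overlap almost wholly, and both lie below the value over all genes. Genes that share fragments are not independent, and the intervals cover counting error only, here and throughout.

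Of the 114 listed receptor genes, nearly all were in replicate 1 and most were missing from replicate 2. A gene counts here only if at least 1 of the 2 lists named it, for receptor genes and all genes alike. The shares of replicate 1 are high in part by that rule, where replicate 2 named few genes. Replicate 1 named 72 of the 74 Vmn1r genes and 39 of the 40 Vmn2r genes, a share of 97.4% of the receptor genes beside 94.5% of all genes. Replicate 2 named 15 Vmn1r genes (20.3%, interval 11.8 to 31.2) and 12 Vmn2r genes (30%, 16.6 to 46.5) beside 87.5% of all genes. Of the 114 genes, 87 were listed in replicate 1 alone, 3 in replicate 2 alone (Vmn1r16, Vmn1r48 and Vmn2r1), and 24 in both. Of these 24 genes, 17 had different distal fragments in the 2 lists and 7 had a called pair (29.2%, interval 12.6 to 51.1), against 74.0% of all genes in both lists.

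Seen from each list, the share of called pairs was uneven. Of the 272 receptor pairs of replicate 1, 8 were also in replicate 2 (2.94%, interval 1.28 to 5.71), where the background over all pairs was 19.0%. Of the 45 receptor pairs of replicate 2, the same 8 make 17.8% (interval 8.0 to 32.1), and there the background was 17.1%. A receptor pair of replicate 2 was thus found in replicate 1 about as often as any other pair of that list. The low share seen from replicate 1 is bounded by list length, since replicate 2 held 45 receptor pairs and at most that many of the 272 could be shared, a ceiling below the background of 19.0%. By class, 6 of 189 Vmn1r pairs and 2 of 83 Vmn2r pairs of replicate 1 were called, which is 3.17% and 2.41% with overlapping intervals.

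The receptor genes also had few pairs each. In replicate 1 the median was 2 pairs per listed gene in either class, where the median over all genes was 13, and 44 of the 111 genes (39.6%) had a single pair, against 10.7% of all genes. In replicate 2 a single pair was the rule, with 20 of 27 genes (74.1%) beside 11.3% of all genes. The most pairs in replicate 1 belonged to Vmn1r32 (21), Vmn1r235 (18) and Vmn1r21 (6, level with Vmn1r1) among the Vmn1r genes, and to Vmn2r60 (7), Vmn2r87 (6) and Vmn2r10 (4, level with Vmn2r15) among the Vmn2r genes. Vmn1r32 and Vmn1r235 together held 39 of the 272 pairs (14.3%). In replicate 2 Vmn1r32 was again first with 10 pairs, followed by Vmn1r33 with 2, and no other Vmn1r gene had more than 1, while Vmn2r84, Vmn2r85 and Vmn2r9 had 3 each. Vmn1r235 and Vmn2r60 were absent from replicate 2.

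**Figure D1:**
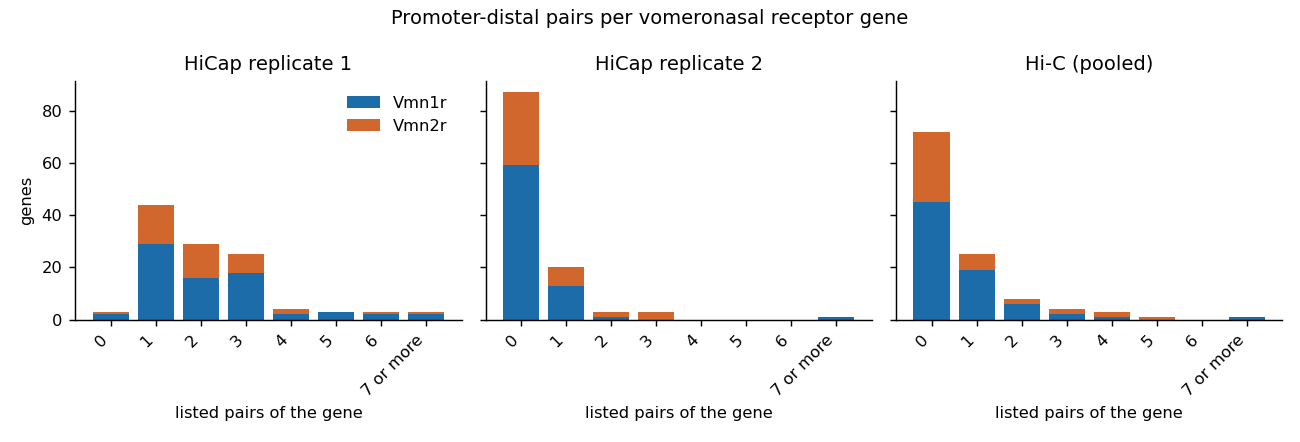
Number of receptor genes (vertical axis) by their number of listed pairs (horizontal axis) in each list, with Vmn1r genes in blue and Vmn2r genes in orange. Most genes had 1 to 3 pairs in replicate 1, and 87 of 114 had none in replicate 2.

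Other genes with as few pairs in replicate 1 give a frame for these counts. Among genes with 1 pair in replicate 1, 5 of 44 receptor genes (11.4%) and 47.2% of 2102 other genes were named in replicate 2, and with 2 or 3 pairs, 12 of 54 receptor genes (22.2%, interval 12.0 to 35.6) and 65.0% of 2361 others. With 4 to 6 pairs the shares were 6 of 10 (60%, interval 26.2 to 87.8) and 83.1% of 2297, and with 7 or more 1 of 3 (interval 0.84 to 90.6) and 98.2% of 13165. The interval of the receptor genes holds the value of the others with 4 to 6 pairs, and few receptor genes had so many. The receptor promoters are also poor in G+C. Their fragments had a median G+C of 36.9% in class Vmn1r and 34.4% in class Vmn2r, against 52.5% over all listed promoters. Over other genes the share named in replicate 2 rose with promoter G+C, from 47.9% of 315 genes under 35% G+C to 93.0% of 13653 genes with at least 50%. In the lowest class 11 of 54 receptor genes were named (20.4%, interval 10.63 to 33.53), and between 35 and 40% G+C 5 of 32 (15.6%, 5.28 to 32.8) beside 65.1% of other genes. Between 40 and 45% the shares were 40.9% (20.7 to 63.7) and 76.2%, and between 45 and 50% they were 33.3% (4.33 to 77.7) and 84.9%. The receptor genes lay below other genes of like promoter G+C in each of these 4 classes. In replicate 1 all 54 receptor genes under 35% G+C were named, beside 86.7% of the others. Genes in neither list are not counted, so that this share is high in part by the rule of membership. The part of base composition in the missing genes was not tested.

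**Figure D2:**
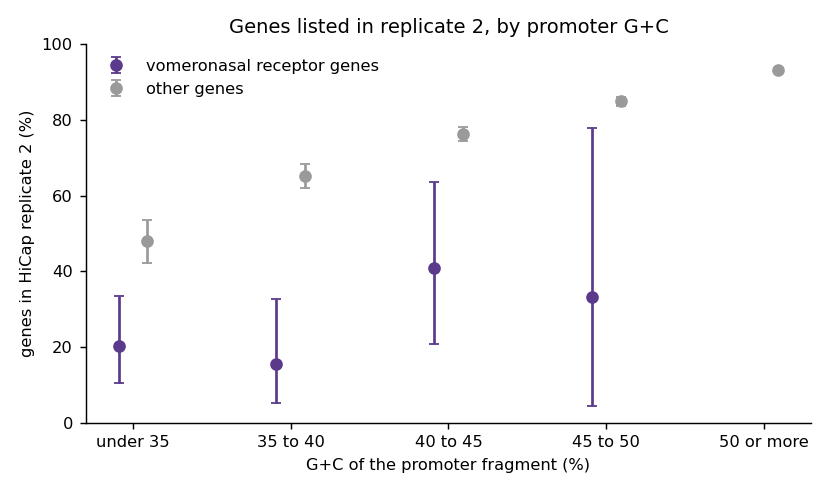
Share of genes named in HiCap replicate 2 (vertical axis, %) by the G+C of the promoter fragment (horizontal axis, %), for receptor genes in purple and all other genes in grey, with exact 95% intervals as bars. The receptor genes sit at 20.4% and 15.6% in the lowest classes, where the other genes sit at 47.9% and 65.1%.

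The authors kept reads with a unique position, and the uniqueness of the sequence around the promoters was therefore measured too. The 50-base words used are shorter than the authors' full reads, and the window is wider than the captured fragments. The measure is thus only a proxy for their filter. Within 10 kb of the promoters, a median of 85.6% of 50-base words were unique in mm9 for Vmn1r genes and 85.1% for Vmn2r genes, against 97.2% over all listed promoters. The values ran from 31.8% at Vmn1r48 to 99.75%. The 27 genes named in replicate 2 had a median of 83.5%, below both class medians, and the 7 called genes had 90.7%. The median number of MboI sites was 57 in the 20 kb around a receptor promoter and 48 around all promoters. The parts of sequence uniqueness and of site number in the missing genes were not tested.

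The called pairs are described first on chromosome 6, which carries 40 of the 114 genes and 5 of the 8 calls. Vmn1r49 and Vmn1r53, a pair of V1R genes of 1 array, were both linked in both replicates to the same 936-bp fragment, chr6:90182509-90183444 of mm9. It lies 159.9 kb upstream of Vmn1r49 (promoter fragment chr6:90022938-90023296) and 8.29 kb upstream of Vmn1r53 (chr6:90174260-90175117), and it overlaps an exon of the pseudogene Gm20426. Replicate 1 also linked Vmn1r52 (54.75 kb away), Vmn1r44 (340 kb) and Vmn1r43 (362.9 kb) to it, so that 5 of the 114 genes met at this fragment. It also linked V1ra8, a V1R gene under an older symbol that the rule does not take in, and the genes BC048671, Chst13 and Slc41a3 of other kinds. Replicate 2 linked no receptor gene but the 2 called ones, and BC048671, Chst13, Aldh1l1, Gm839 and Isy1. Chst13, a carbohydrate sulfotransferase gene, and BC048671 were called there too. Hi-C listed the pair of Vmn1r53, which made it the only receptor pair in all 3 lists.

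The central 300 bases of this fragment are shown because more receptor genes were linked to it than to any other region. They are rich in G+C (56.7%, where the median over the central windows of all distal fragments was 44.7%), and capitals mark the letters CCCNNGGG, the core of the palindrome that EBF factors bind. The same window of the Gng12 fragment described next is shown beside it, also with these letters in capitals.
Shared Vmn1r49 and Vmn1r53 fragment, chr6:90182826-90183125, plus strand: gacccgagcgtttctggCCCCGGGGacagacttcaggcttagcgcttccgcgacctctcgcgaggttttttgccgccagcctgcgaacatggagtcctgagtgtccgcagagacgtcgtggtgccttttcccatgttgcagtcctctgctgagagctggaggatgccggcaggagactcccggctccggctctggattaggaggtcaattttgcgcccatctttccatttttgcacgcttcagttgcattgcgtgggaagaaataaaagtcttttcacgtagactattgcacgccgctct
Vmn1r33 fragment in Gng12, chr6:66860418-66860717, plus strand: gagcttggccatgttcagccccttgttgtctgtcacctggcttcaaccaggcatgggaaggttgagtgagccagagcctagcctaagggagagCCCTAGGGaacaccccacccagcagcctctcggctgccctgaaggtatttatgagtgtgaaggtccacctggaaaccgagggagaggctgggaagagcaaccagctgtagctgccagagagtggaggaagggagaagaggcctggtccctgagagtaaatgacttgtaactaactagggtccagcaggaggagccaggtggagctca
Of the 7 called distal fragments 3 held CCCNNGGG in the central window (palindromic, so that both strands are read at once), beside 6.32% of 432194 windows of the same length over all distal fragments of at least 300 bases. ATGCAAAT, the octamer of POU factors such as Oct4, was found in 1 of 7 (1.77% of all windows). AAGGTCA, letters that the orphan receptor Esrrb binds, was in none of the 7 central windows (5.78% of all windows). Over the whole called fragments, which differ in length, CCCNNGGG was in 4 of 7, ATGCAAAT in 1 and AAGGTCA in 2 (the upstream fragment of Vmn1r32 and that of Vmn1r33). Both strands were searched for each. These matches describe letters only.

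Vmn1r33 (chr6:66562459-66563389) was linked in both replicates to chr6:66860115-66861022, a fragment of 908 bp in an intron of Gng12, which encodes a G protein gamma subunit. The distance was 297.6 kb, with 6 other receptor genes of the lists in between. Gng12 itself, 14.1 kb from the fragment, was linked to it in both HiCap lists and in Hi-C. Vmn1r32 was linked there in replicate 1 (351.1 kb) and Vmn1r38 in replicate 2 (133.2 kb), so that 3 receptor genes of this array reached the fragment in at least 1 list. Hi-C listed a single pair of Vmn1r33, at 5.98 kb.

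Vmn1r32 (chr6:66508797-66510036) had the most pairs of all receptor genes in both HiCap lists and 2 calls. They were 9.56 kb downstream at chr6:66499704-66500006 and 3.68 kb upstream at chr6:66512605-66513598, both intergenic and linked to no second gene in replicate 1. Replicate 2 also linked the upstream fragment to E230016M11Rik, at 473.1 kb. The 21 pairs of Vmn1r32 in replicate 1 lay within 351.1 kb, and 14 were within 20 kb. Its 10 pairs of replicate 2 were spread more widely, with 3 of them at 29.5, 35.6 and 50.5 Mb. Counting distal fragments within 1 kb as equal, 8 of the 21 pairs of replicate 1 had a match in replicate 2. Hi-C listed 3 pairs, 5.94 to 6.71 kb away, 1 of them also in replicate 1. The nearest promoter of another kind of gene, that of the spindle checkpoint gene Mad2l1, is 23.8 kb away.

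Vmn1r1, the only receptor gene named on chromosome 1 (chr1:184087963-184088363), was linked in both replicates to chr1:183785507-183786485, an intergenic fragment of 979 bp at 302.2 kb, past the promoters of Srp9 and Enah. The annotated start of Vmn1r1 lies 87 bp outside its promoter fragment, whereas the fragments of 106 of the 114 genes hold the start. Lbr, the lamin B receptor gene, was called at the same fragment from 13.5 kb. This pair was the only one of Vmn1r1 in replicate 2. The other 5 pairs of replicate 1 lay between 2.76 and 9.23 kb downstream, and the 4 of Hi-C between 2.14 and 110.6 kb.

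The Vmn2r calls both fell in the array on chromosome 10, where Vmn2r84, Vmn2r85, Vmn2r86 and Vmn2r87 lie within 104.4 kb. Vmn2r84 (chr10:129830290-129831404) was linked to chr10:129979214-129979516, an intergenic fragment of 303 bp at 148.5 kb upstream, past the promoters of the 3 other genes. Vmn2r85 (chr10:129865713-129866773) was linked to chr10:129850075-129852099, a fragment of 2025 bp over an exon of the pseudogene Gm9770, 15.2 kb downstream. Replicate 2 linked Vmn2r84 to the latter too, at 20.2 kb. It also linked Olfr821 (380.4 kb), Olfr247 (429.6 kb), Rdh5 (1494.8 kb) and Taar7d (106104 kb) to it. Replicate 1 linked Tespa1 there (90.9 kb), and none of these other genes was called. The called fragment of Vmn2r84 was linked to no other gene in either HiCap list. Hi-C listed no pair of Vmn2r84 or Vmn2r85 at these fragments.

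The fragment that adjoins the Vmn2r84 call, chr10:129979517-129979708, was listed for different genes of the array in the 2 replicates. Replicate 1 linked it to Vmn2r84 (148.8 kb) and Vmn2r87 (45.6 kb), and replicate 2 to Vmn2r85 (113.4 kb) and Vmn2r86 (87.1 kb). All 4 receptor genes were thus linked to this fragment, and none in both lists. Other genes were linked to it too, Tespa1 in replicate 1, and Olfr769 and Rdh5 in replicate 2. The fragment is shown whole, with the MboI site at its start in capitals.
Fragment linked to Vmn2r84, Vmn2r85, Vmn2r86 and Vmn2r87, chr10:129979517-129979708, plus strand: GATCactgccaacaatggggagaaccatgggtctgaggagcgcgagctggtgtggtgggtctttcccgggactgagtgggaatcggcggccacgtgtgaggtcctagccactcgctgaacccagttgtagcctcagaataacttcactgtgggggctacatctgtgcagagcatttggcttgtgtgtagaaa
The 150 bases before the annotated start of each of the 4 genes are shown because they are similar to each other. Whether reads of these promoters can be told apart was not tested. Capitals mark the runs of 12 or more bases, 12, 17 and 14 bases long, that all 4 share. For Vmn2r84, Vmn2r85 and Vmn2r86 the stretch runs past the end of the promoter fragment, and the runs of 12 and 17 bases lie outside it.
Vmn2r84, chr10:129831298-129831447, minus strand: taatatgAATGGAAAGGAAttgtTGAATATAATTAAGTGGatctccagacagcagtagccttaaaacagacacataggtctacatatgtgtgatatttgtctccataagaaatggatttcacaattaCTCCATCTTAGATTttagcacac
Vmn2r85, chr10:129866669-129866818, minus strand: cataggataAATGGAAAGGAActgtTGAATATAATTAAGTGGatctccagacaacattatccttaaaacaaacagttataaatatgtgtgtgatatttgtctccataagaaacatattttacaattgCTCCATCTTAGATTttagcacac
Vmn2r86, chr10:129892951-129893100, minus strand: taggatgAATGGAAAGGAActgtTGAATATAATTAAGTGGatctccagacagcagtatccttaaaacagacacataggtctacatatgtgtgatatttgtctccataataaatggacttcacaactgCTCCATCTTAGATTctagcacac
Vmn2r87, chr10:129934436-129934585, minus strand: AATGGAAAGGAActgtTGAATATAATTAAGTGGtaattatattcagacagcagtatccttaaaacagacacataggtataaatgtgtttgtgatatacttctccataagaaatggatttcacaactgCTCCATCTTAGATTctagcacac
In global alignments Vmn2r84 and Vmn2r86 matched in 141 of 150 columns (94%), Vmn2r84 and Vmn2r85 in 85.1%, and the least similar pair, Vmn2r85 and Vmn2r87, in 78.8%. Vmn1r49 and Vmn1r53, which share the chromosome 6 fragment, matched in 50%. The sequence around the chromosome 10 promoters was among the least unique of the arrays, with a median of 65.5% unique 50-base words over the 4 genes. The called fragment of Vmn2r85 had 38.8% unique words and that of Vmn2r84 72.7%, while the other 5 called fragments had between 91.7 and 100%. The 2 called distal fragments on chromosome 10 were thus the least unique of the 7. Around the promoters the order was another, with 62.4% for Vmn2r84, 80.7% for Vmn2r85 and the lowest value of the called genes, 56.4%, for Vmn1r53 on chromosome 6. The part of repeated sequence in the calls was not tested.

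**Figure D3:**
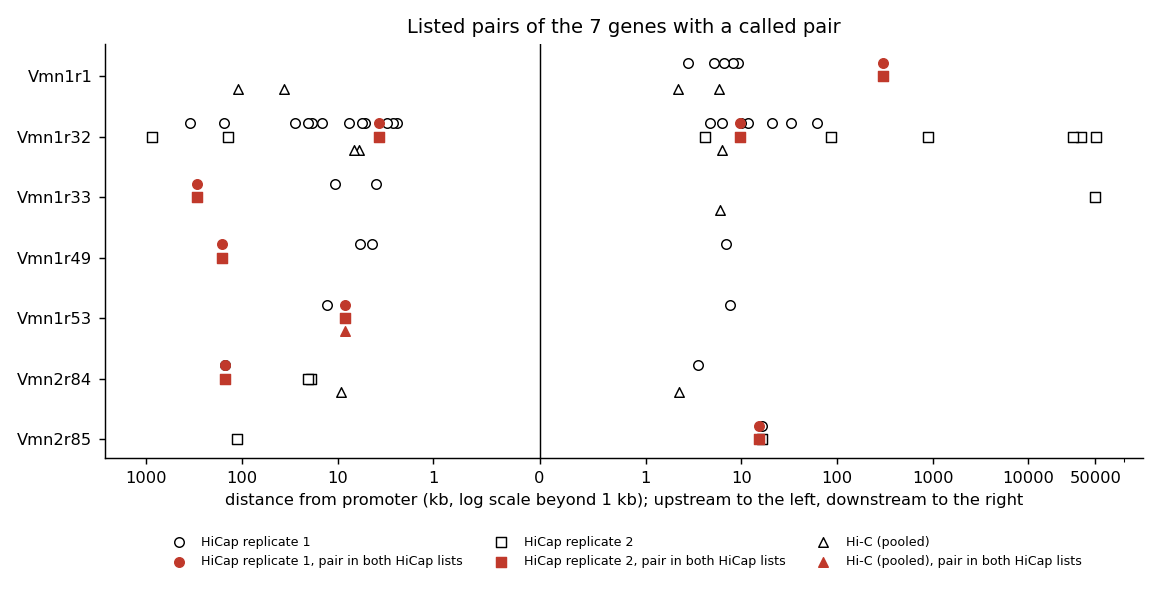
Distance of every listed pair from its promoter (horizontal axis, kb, log scale beyond 1 kb, upstream to the left and downstream to the right) for the 7 genes with a call. Circles, squares and triangles stand for HiCap replicate 1, HiCap replicate 2 and Hi-C, and filled red symbols for pairs in both HiCap lists. The 8 calls lie from 3.68 to 302.2 kb, and only that of Vmn1r53 carries a triangle.

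Over the 8 calls the median distance was 81.8 kb, with 4 under 20 kb and 4 over 100 kb. Distal fragments lay between genes in 4 calls, over an exon of a pseudogene in 3 and in an intron in 1. No called fragment overlapped a receptor gene.

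Over whole lists, receptor pairs were short in replicate 1 and long in replicate 2. The median distance in replicate 1 was 8.57 kb for Vmn1r pairs (interval 7.21 to 10.7) and 15.6 kb for Vmn2r pairs (9.51 to 21.4), both below the 19.8 kb over all pairs, although the upper end for Vmn2r reaches past it. The intervals of the 2 classes overlap. In replicate 2 the medians were 297.6 kb for Vmn1r (interval 86.7 to 864.7) and 100.2 kb for Vmn2r (18.7 to 209.0), beside 100.9 kb over all pairs, and again the intervals overlap. Pairs over 100 kb made 13.6% of the receptor list in replicate 1 and 60% in replicate 2 (interval 44.3 to 74.3), beside 16.3% and 50.1% over all pairs. The shift between replicates was therefore in the direction of the whole lists. Pairs over 10 Mb were 5 of 45 in replicate 2, all of genes on chromosome 6 (Vmn1r16, Vmn1r32 and Vmn1r33), which is 11.1% beside 10.21% over all pairs, and none of 272 in replicate 1.

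**Figure D4:**
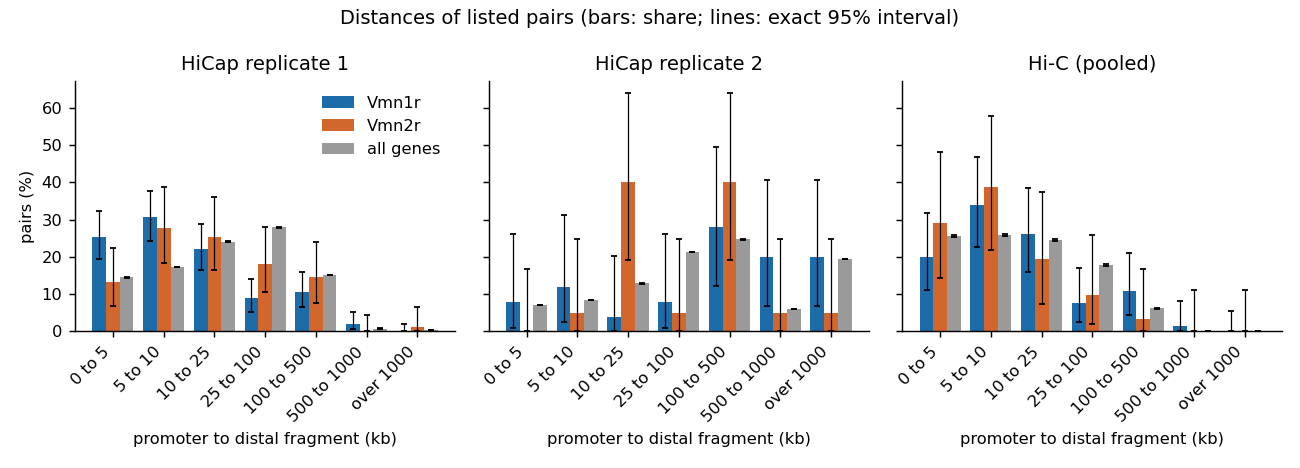
Share of pairs (vertical axis, %) by distance between promoter and distal fragment midpoints (horizontal axis, kb) in each list, for Vmn1r in blue, Vmn2r in orange and all genes in grey, with exact 95% intervals as lines. In replicate 1 and Hi-C most receptor pairs fall under 25 kb, and in replicate 2 60% are over 100 kb.

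Hi-C was made without capture. It listed 65 Vmn1r pairs of 39 genes with a median of 8.40 kb (interval 7.36 to 14.6) and 31 Vmn2r pairs of 15 genes with a median of 7.65 kb (5.16 to 11.3), beside 9.60 kb over all pairs. The Vmn1r median lay near that of replicate 1, while the Vmn2r median was shorter (7.65 against 15.6 kb) with intervals that overlap, and the order of the classes was turned. Of its 54 receptor genes, 12 were in neither HiCap list, and 42 of the 114 genes above had a Hi-C pair (36.8%, against 76.4% of all genes). The most pairs belonged to Vmn1r235 (12), Vmn1r1 (4), and Vmn1r32 and Vmn1r87 (3 each), and in the other class to Vmn2r80 (5), Vmn2r24 and Vmn2r90 (4 each). Of the 96 pairs, 7 were in replicate 1 and 1 of them also in replicate 2 (7.29% in either list, interval 2.98 to 14.5), where the background over all Hi-C pairs was 39.4%. This share is bounded by the HiCap lists. Only 82 of the 96 pairs belonged to the 114 genes, and those of the other 12 genes could not be shared. In replicate 1 the listed receptor genes had a median of 2 pairs, against 13 over all genes. Of the 7 shared pairs, 4 belonged to Vmn1r235, all downstream between 8.40 and 20.55 kb, and 1 each to Vmn1r32, Vmn1r53 and Vmn2r90. Vmn1r235 (chromosome 17) was thus the gene with most pairs shared between Hi-C and a HiCap list, although replicate 2 did not name it.

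The distal fragments of both classes differed in what they overlapped. In replicate 1, 89.4% of the fragments of Vmn1r pairs were intergenic (interval 84.1 to 93.4) and 57.8% of those of Vmn2r pairs (46.5 to 68.6). Hi-C gave 90.8% (81.0 to 96.5) and 54.8% (36.0 to 72.7), so that the order was the same in a second assay. In replicate 2, with 25 and 20 pairs, the shares were 52% and 60% and the order was not seen. Of the Vmn2r fragments 26.5% in replicate 1 and 41.9% in Hi-C overlapped the gene's own exons or introns, against 2.65% and 3.08% of the Vmn1r fragments. Vmn1r genes usually have their coding sequence in a single exon and Vmn2r genes are spread over several exons with long introns. The side of the promoter was even, with 48.2% of receptor pairs upstream in replicate 1 (interval 42.1 to 54.3) and 46.7% in replicate 2.

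By position, the 114 genes fell into 23 groups when promoters within 1 Mb of a neighbour were joined, on 9 chromosomes. Only these 114 genes were joined. Group and array sizes therefore count listed genes, and a single gene may have receptor genes nearby that were not listed. Of these groups 16 held at least 2 genes, 107 genes in all, and 7 were single genes. Only 2 groups held both classes, on chromosomes 7 and 17. The largest were an array of 18 Vmn1r genes on chromosome 6 (chr6:56905593-58423039), 1 of 13 Vmn1r genes (chr6:89663587-90219170) and a mixed array of 10 genes on chromosome 17 (chr17:20555524-21451009). They had 35, 36 and 34 pairs in replicate 1 and 2, 7 and 0 in replicate 2. Calls came from 4 groups, the array of 13 Vmn1r genes (2 calls), 7 Vmn1r genes at chr6:66508797-66727706 (3), the chromosome 10 array (2) and Vmn1r1 (1). The array of 9 Vmn2r genes on chromosome 5 had 22 pairs in replicate 1 and 8 in replicate 2 and no call. Chromosome 7, with 39 genes the most after chromosome 6, had 1 pair in replicate 2, of Vmn1r85 at 53.1 kb.

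**Figure D5:**
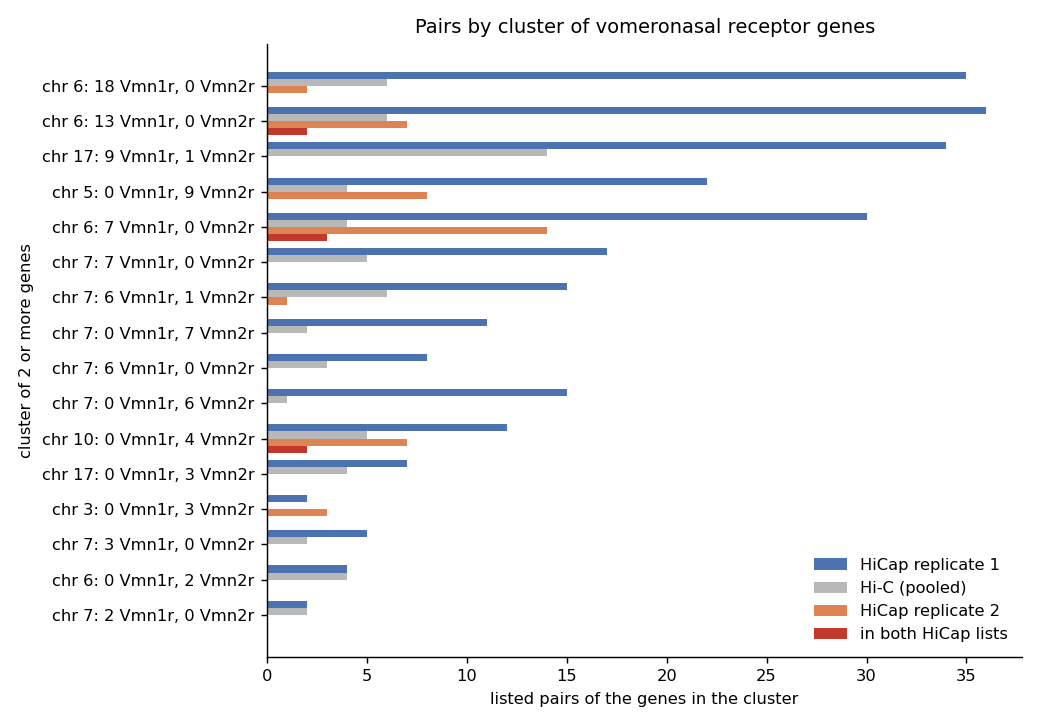
Listed pairs (horizontal axis) of each group of at least 2 receptor genes (vertical axis, with chromosome and number of genes by class), for replicate 1 in blue, Hi-C in grey, replicate 2 in orange and pairs in both HiCap lists in red. Replicate 2 pairs came from 7 of the 16 groups, and those on chromosome 7 hold 1 in all.

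Distal fragments often lay within the span of the gene's own group. In replicate 1, 66.9% of receptor pairs had their distal fragment between the outermost promoters of the gene's own group (interval 61.0 to 72.5), and in replicate 2 40% (25.7 to 55.7). In Hi-C it was 64.6% of the 82 pairs whose gene is among the 114. These shares also count pairs of the 7 single genes, whose groups span no more than their own promoter fragment. No like share was computed for other genes, and none that pair distance alone would give. In replicate 1, 74.6% of receptor pairs were at most 25 kb, and groups of at least 2 genes spanned 76.5 to 1517.4 kb. Single distal fragments linked to several receptor genes numbered 13 of 254 in replicate 1 (5.12%), 6 of 39 in replicate 2 (15.4%) and none of 96 in Hi-C. Over all distal fragments, those linked to 2 or more genes of any kind made 21.9%, 20.4% and 7.8%. That is a wider count than one of receptor genes alone, so that the receptor shares cannot be ranked against it. Besides the fragments above, chr7:5080732-5081036 was linked in replicate 1 to Vmn1r55, Vmn1r56, Vmn1r57 and Vmn1r65, from 18.2 to 881.7 kb, and to 14 genes of other kinds, among them Galp, Epn1 and several Zfp genes. Replicate 2 listed no pair of these 4 genes. Vmn2r11 and Vmn2r12 shared a fragment in each replicate, but not the same: chr5:109471656-109473112 in replicate 1 and chr5:109512150-109513094 in replicate 2. Of the distal fragments of receptor pairs, 17.7% in replicate 1 and 48.7% in replicate 2 were also linked to a gene outside the 114. Each of these fragments had 2 or more genes of any kind, beside 21.9% and 20.4% of all fragments. Fragments shared by receptor genes alone are not in these shares, which are thus lower bounds. In replicate 2 the lower bound lay above the value over all fragments.

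Vmn2r1 to Vmn2r7 encode the family C receptors, which basal neurons express together with another V2R, and 3 of the 7 were listed, all on chromosome 3. Vmn2r1 had 1 pair in replicate 2, in its own intron at 6.398 kb. Vmn2r3 had 1 in replicate 1 in its own intron at 7.031 kb, and Vmn2r4 had 1 in replicate 1, in its own intron at 6.422 kb, and 2 in replicate 2, at 187.1 kb and 2.42 Mb. None had a pair in Hi-C. Of the genes named in replicate 2 alone, Vmn1r16 had a pair at 39954 kb and Vmn1r48 at 209.0 kb. The 4 genes with a pseudogene symbol, Vmn1r207-ps, Vmn2r-ps60, Vmn2r68-ps and Vmn2r72-ps, had 1, 3, 1 and 1 pairs in replicate 1 and none in replicate 2.

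The genes through which these receptors signal were listed far more fully. All 8 of a list of transduction genes had a called pair, beside 60.7% of all genes, with a median of 30 pairs in replicate 1 and 21 in replicate 2. Gng8, a G protein gamma subunit of vomeronasal neurons, had 22 called pairs, Trpc2, the transduction channel, 11, Plcb2, a phospholipase, 7, and Gnai2, the V1R-coupled subunit, 5. Gnao1, the V2R-coupled subunit, and Omp, the olfactory marker protein, had 3 each, as had the chloride channel gene Ano1, and Ano2 had 2. Of 4 listed genes among B2m and the H2-M genes, whose products accompany V2Rs, B2m had 27 calls, H2-M9 had 1, and H2-M1 and H2-M10.3 had none. Of 5 listed formyl peptide receptor genes, a family with only some members in vomeronasal neurons, Fpr1 and Fpr2 had 1 call each. Fpr3, Fpr-rs4 and Fpr-rs6 had no call and no pair in replicate 2. Among regulators of the sensory lineage, Meis2 had 53 calls, Ebf1 12, and Neurog1 and Lhx2 2 each, while Bcl11b and Emx2 had none.

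Calls were also few in other chemosensory receptor families, beside the 60.7% of all genes with a called pair. A call was found for 38 of 508 olfactory receptor genes (7.48%, interval 5.348 to 10.12), none of 16 Tas2r bitter taste genes and none of 6 Taar trace amine genes, with exact intervals that reach 20.6% and 45.9%. The taste gene Tas1r3 had 1 call. Replicate 2 named 35.6% of the olfactory, 12.5% of the Tas2r and 33.3% of the Taar genes, beside 23.7% of the vomeronasal genes and 87.5% of all genes. The median was 1 pair per gene in replicate 1 for the olfactory genes, counted with genes at 0, and 2 for the vomeronasal genes.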

How the data were processed

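HiCap and Hi-C libraries of R1 mESCs were mapped to mm9 (per the labels) by the authors, each read end on its own. They filtered the reads with HiCUP, removed duplicates, ignored ends less than 1 kb apart, and asked for 3 or more read pairs in both replicates to call a contact. The deposited values are positions of promoter and distal fragments with a gene symbol, with no read numbers and no normalization, so that the depth behind a pair is unknown. The filter behind the pooled Hi-C list is not given in the sources used here.

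Distances ran between fragment midpoints. Positions were printed 1-based, from the MboI site that starts the fragment. Distal starts lie at GATC in the lists, whereas promoter positions are offset by 2 bases, which was taken back, and all 371 distal and 126 promoter fragments of receptor pairs then began at GATC. Genes and exons came from GENCODE vM1 on NCBIM37 (the assembly of mm9), sequences from that genome. The 2 classes were compared by counts, medians and exact binomial 95% intervals (Python 3.11.15, pandas 2.3.3, numpy 2.4.6, scipy 1.17.1), and intervals of medians came from order statistics. No test was run, since 2 lists without read numbers give no spread between samples. The matching of pairs, the grouping and the intervals were tested on simulated data. Uniqueness is the share of 50-base words found once in the genome, taken every 50 bases within 10 kb of the promoter midpoint and every 25 bases in distal fragments. Groups of genes joined promoters within 1 Mb. Named genes were all members with a call, the 3 of each class with most pairs in each list, those in replicate 2 alone, Vmn2r1 to Vmn2r7, and genes of the related lists with a call, of which 1 is not reported here. The members and lists were chosen with earlier results of these data known. Alternatives were either replicate alone, overlap within 1 kb, gene and distal fragment only, the authors' combined list, pairs of at least 15 kb, merged fragments, other distances, other gaps of 500 kb and 2 Mb, and leaving out pseudogenes. Capture-C was not analysed here.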

Additional observations from a re-analysis of the deposited data

How the results depend on the processing

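The shares of genes with a called pair rest on requiring both replicates. With a listed pair in a single replicate as the criterion they ranged from 20.3 to 97.3% for Vmn1r and from 30 to 97.5% for Vmn2r, the low ends without replicate 1 and the high ends without replicate 2, since replicate 2 named few of these genes. The high ends are set in part by the rule of membership, which takes only genes named in at least 1 of the lists. Counting distal fragments within 1 kb as the same raised the called pairs from 8 to 17, of which 9 were added at 4 genes, and brought in Vmn2r9 at 11.5 kb, while the receptor pairs of Hi-C found in a HiCap list rose from 7 to 25. With pairs of at least 15 kb, 5 called pairs were left. The authors' combined list, gene and distal fragment alone and merged fragments each gave 8 pairs. Leaving out pseudogenes, and adding 15 genes with older V1r symbols, an alternative chosen after seeing the data, gave shares inside the intervals above, from 4.05 to 7.5% over these and the remaining settings. Median distances stayed within their intervals under both other definitions, and 20 to 26 groups were formed with gaps of 2 Mb and 500 kb.

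No paired analysis was possible because no result came from a test across samples. The depth behind a pair is unknown, a pair missing from a list is not shown to be absent from the cells, and promoters with no listed pair do not appear at all, so that genes not among the 114 are not counted as lacking contacts.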
